A study of Mus musculus with 10 samples.

Results

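Replication-dependent histone genes are the clustered genes that code for the linker histone H1 and the core histones H2A, H2B, H3 and H4. Here they were the genes on the array whose symbol is H1f1 to H1f5 or begins with H2ac, H2bc, H3c or H4c and a digit. This gave 53 of 19505 genes, made up of 4 H1, 13 H2A, 15 H2B, 10 H3 and 11 H4 genes. H1f4 was not analysed here. Other genes of these families may also be missing, since only probe sets with exactly 1 gene symbol were used. Each of the 53 genes had 1 probe set, so the rule for choosing between probe sets by their mean level was never needed. The set was put forward after H2bc15 and H2bc7 had been seen among the genes with the smallest p in these data, so counts over the set describe these arrays and are no independent support.

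The values came from complete colon tissue of C57BL/6 wild type mice on 10 arrays, 5 labelled as ECP and 5 as control. All mice had colitis brought on by drinking water with 3% DSS (dextran sulfate sodium) and by an anti-PD1 antibody given into the peritoneum. Mice of the ECP group had in addition received donor cells treated by extracorporeal photopheresis (ECP), a procedure in which blood leukocytes are made light-sensitive with a drug and irradiated with ultraviolet A outside the body, and the control group had colitis without that transfer. Ages, sexes and the number of mice are not given in the labels, nor whether every array came from its own mouse, so the p-values cover only the variation among these arrays. Levels are log2 intensities after RMA (background correction, quantile normalisation across arrays and summary of the probes of a probe set), and differences are ECP minus control on that log2 scale. The comparison asks what giving ECP-treated cells did to gene expression in the inflamed colon.

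Cells make most of their histone protein during DNA replication, when new DNA has to be packed into nucleosomes, and the mRNAs of these genes are abundant in S phase and are degraded when it ends. Unlike other mRNAs they end in a stem-loop bound by the protein SLBP and not in a poly(A) tail. The labelling kit named in the labels primes along the whole RNA, so RNA without a poly(A) tail is also copied. In the colon the dividing cells lie mainly in the lower crypt, and infiltrating immune cells can also divide.

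Colon epithelial markers were high on every array, with a mean level of 12.13 to 12.24 in the ECP arrays and 11.93 to 12.27 in the control arrays for 7 measured genes, among them the mucin gene Muc2. Array medians lay between 6.94 and 6.98 and correlations between arrays between 0.977 and 0.996. Control replicates 1 and 4 stood apart in pancreatic acinar transcripts. The mean of 11 acinar genes was 5.79 to 6.02 in the ECP arrays, against 10.74 and 12.56 in control replicates 1 and 4, 6.88 in control replicate 5 and 6.12 and 5.98 in control replicates 2 and 3. All 11 acinar genes were lower in the ECP arrays, 6 of them at an unadjusted p under 0.05, against 2.77% of all genes. The mean of 6 B cell genes was 5.71 to 6.91 in the ECP arrays, against 8.64 in control replicate 4 and 5.91 to 6.02 in the other control arrays. The mean of 6 smooth muscle genes was 11.18 to 11.78 in the ECP arrays, while control replicates 1 and 4 had 10.54 and 10.88 and the other control arrays 11.44 to 11.51. The result for the histone genes is therefore also given without the control arrays with raised acinar levels.

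The histone genes as a group had lower levels in the ECP arrays, in 52 of 53 genes, against 46.7% of all genes. The median difference was -0.29, a fold of 0.819, where the median over all 19505 genes was 0.01. No gene passed the test after adjustment for all genes: with limma (linear models with a moderated variance, Benjamini-Hochberg adjustment), the number with an adjusted p under 0.05 was 0 of 53 histone genes and 0 of 19505 genes in all (0%), and among the histone genes 0.106 was the smallest adjusted p. At an unadjusted p under 0.05, 38 of the 53 were lower in the ECP arrays, against 2.77% of all genes, and 0 of the 53 were higher, against 2.31% of all genes. In 29 of the 53 every ECP array lay below every control array, against 0.831% of all genes, and in 0 of the 53 did every ECP array lie above, against 0.39% of all genes. The probes of near-identical genes can bind each other's RNA, so the 53 values are not separate measurements of 53 RNAs. H3c14 and H3c15 had the same value on all 10 arrays (largest gap 0), which leaves at most 52 distinct measurements. In whole tissue, fewer dividing cells and less histone RNA per cell cannot be told apart.

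**Figure D1:**
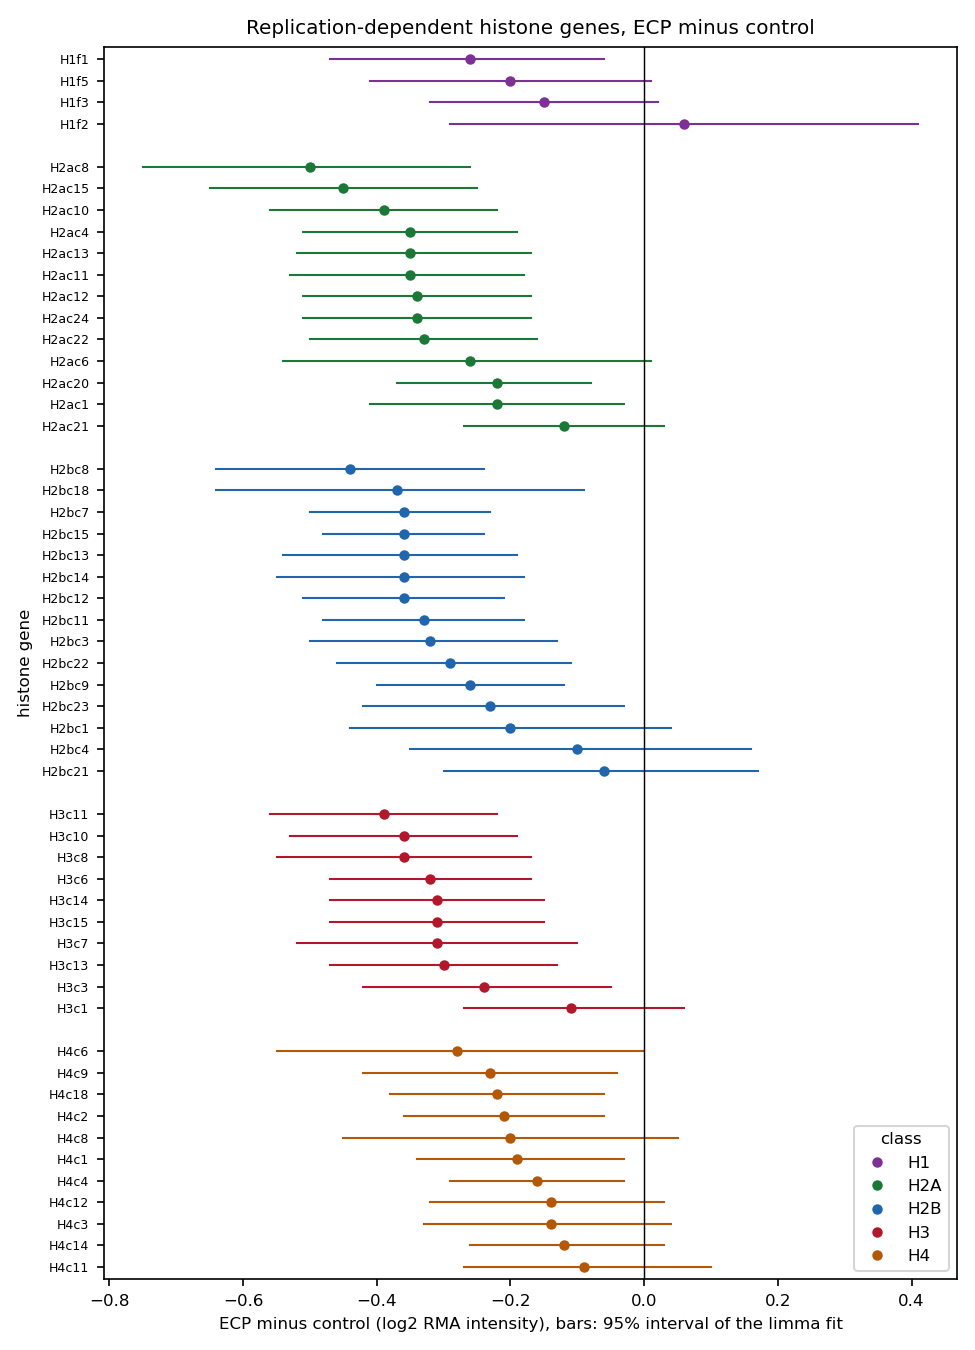
Difference in log2 RMA intensity, ECP minus control, for the 53 histone genes in rows, coloured and grouped by class and sorted within it, with 95% intervals of the limma fit (5 arrays per group). Points lie from -0.50 for H2ac8 to 0.06 for H1f2, and most H2A, H2B and H3 genes lie near -0.34.

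Promoter sequence gives the genes' regulatory context. RefSeq promoter windows were found for 48 of the 53 genes, and the 150 bases before the annotated start (build GRCm38.p6) were searched on both strands for 3 motifs. These were the letters TATAAA of a classical TATA box, then the pentamer CCAAT bound by the factor NF-Y, and TTTGCAT, the core of the Oct-1 binding site known from H2B promoters. The windows given are those of the gene with the smallest p in each class, of H2bc7, which had the next smallest p of all 53, and of H1f2, whose mean was not lower in the ECP arrays. Sequences run 5′ to 3′ on the strand of the gene, and capitals mark these motifs on either strand. None of the marked motifs overlap.
H2bc15 (H2B, chr13:21753926-21754075, plus strand): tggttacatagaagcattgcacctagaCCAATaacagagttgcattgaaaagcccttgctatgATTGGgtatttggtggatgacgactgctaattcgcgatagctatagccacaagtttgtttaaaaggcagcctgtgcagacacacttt
H2bc7 (H2B, chr13:23574208-23574357, minus strand): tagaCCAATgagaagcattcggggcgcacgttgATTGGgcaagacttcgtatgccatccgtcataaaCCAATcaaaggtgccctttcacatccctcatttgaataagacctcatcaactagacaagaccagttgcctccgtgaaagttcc
H2ac10 (H2A, chr13:23533725-23533874, plus strand): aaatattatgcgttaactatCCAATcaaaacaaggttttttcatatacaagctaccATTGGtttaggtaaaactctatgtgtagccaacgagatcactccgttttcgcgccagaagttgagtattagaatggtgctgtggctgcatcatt
H3c11 (H3, chr13:21783398-21783547, minus strand): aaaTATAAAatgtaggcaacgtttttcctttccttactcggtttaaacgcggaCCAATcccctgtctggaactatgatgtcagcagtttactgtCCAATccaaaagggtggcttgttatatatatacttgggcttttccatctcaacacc
H4c18 (H4, chr13:21832198-21832347, minus strand): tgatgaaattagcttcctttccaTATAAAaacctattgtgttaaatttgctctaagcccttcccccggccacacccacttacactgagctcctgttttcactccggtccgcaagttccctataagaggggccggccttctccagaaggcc
H1f1 (H1, chr13:23763518-23763667, plus strand): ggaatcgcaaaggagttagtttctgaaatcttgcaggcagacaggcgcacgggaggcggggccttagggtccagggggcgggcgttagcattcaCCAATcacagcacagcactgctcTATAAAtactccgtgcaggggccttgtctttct
H1f2 (H1, chr13:23738657-23738806, plus strand): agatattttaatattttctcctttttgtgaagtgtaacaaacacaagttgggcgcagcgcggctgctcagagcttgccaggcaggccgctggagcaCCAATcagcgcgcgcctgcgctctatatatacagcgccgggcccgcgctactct

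A CCAAT box stood in 39 of 48 histone windows (81.2%), against 24.5% of the 32851 windows in the RefSeq table. It was in 13 of 13 H2A and 13 of 13 H2B windows, in 4 of 4 H1 and 6 of 8 H3 windows, and in 3 of 10 H4 windows. The windows of H1f2, H2bc15 and H2bc7 each hold the box. Whether the box goes with the size of a gene's difference was not tested. TATAAA stood in 19 of 48 histone windows (39.6%), against 7.57% of all windows. The octamer core stood in 5 of 13 H2B and 4 of 13 H2A windows, in 0 windows of the other classes, and in 2.36% of all windows. Annotated starts of some of these short genes may not be the start of transcription, and a match is a description of letters only.

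Histone H2B, which pairs with H2A in the nucleosome, held the histone genes with the smallest p. All 15 H2B genes were lower in the ECP arrays (median difference -0.33). Of these, 12 had an unadjusted p under 0.05, against 2.77% of all genes lower at that level. H2bc15 had levels of 9.44, 9.43, 9.39, 9.34 and 9.39 in the ECP arrays and 9.78, 9.70, 9.72, 9.83 and 9.77 in the control arrays. The groups lay apart by more than the whole range of either. Its difference was -0.36 (SE 0.06, 95% interval -0.48 to -0.24, limma adjusted p = 0.106). H2bc7 had 8.77, 8.89, 8.95, 8.80 and 8.78 in the ECP arrays and 9.26, 9.13, 9.17, 9.21 and 9.23 in the control arrays, again without overlap (difference -0.36, SE 0.06, limma adjusted p = 0.106). In a fit restricted to the 9753 genes at or above the median level, both passed the threshold (limma adjusted p = 0.0335 for H2bc15 and 0.0462 for H2bc7). That fit adjusts over fewer genes, and no histone gene was called in any other setting tried. Both genes were known from these data beforehand, so this is no independent support.

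The RefSeq gene table lists H2bc7, H2bc11, H2bc13 and H2bc15 as synonyms of one another, as it does for genes with the same product. H2bc11 and H2bc13 were lower by a similar size, with differences of -0.33 (SE 0.07) and -0.36 (SE 0.08). H2bc12 averaged 9.25 ± 0.08 in the ECP arrays and 9.61 ± 0.10 in the control arrays (SD, n = 5 each). H2bc8 had the most negative difference of the class, with levels of 8.11, 7.81, 8.15, 8.01 and 7.96 in the ECP arrays and 8.65, 8.24, 8.37, 8.54 and 8.46 in the control arrays (difference -0.44, SE 0.09, limma adjusted p = 0.210). Every ECP array was below every control array, by 0.09 at the closest. H2bc14, H2bc9 and H2bc22 also did not overlap between the groups (-0.36, -0.26 and -0.29), while H2bc3, H2bc18 and H2bc23 had unadjusted p under 0.05 with overlapping groups (-0.32, -0.37 and -0.23).

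H2bc4, H2bc21 and H2bc1 were the H2B genes with unadjusted p above 0.05. H2bc4 and H2bc21 are known from mouse and human cells to give polyadenylated mRNAs in cells that no longer divide, and H2bc1 codes for a testis form of H2B. H2bc4 had levels of 11.34, 11.55, 11.65, 11.57 and 11.46 in the ECP arrays and 11.52, 11.53, 11.73, 11.30 and 11.98 in the control arrays. The groups overlapped widely, since control replicate 4 lay below every ECP array and control replicates 3 and 5 above every ECP array (difference -0.10, 95% interval -0.35 to 0.16, -0.17 without control replicate 4 and 0.00 without control replicate 5). RefSeq lists H2bc4 and H2bc8 as synonyms too, so genes listed together had differences of -0.10 and -0.44, a contrast that was not tested. H2bc21 differed by -0.06 (95% interval -0.30 to 0.17) and H2bc1, a dim probe set at percentile 31.5 of the levels of all genes, by -0.20 (95% interval -0.44 to 0.04). Without ECP replicate 1 these differences were -0.01 and -0.13, and without ECP replicate 4 that of H2bc21 was -0.13.

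**Figure D2:**
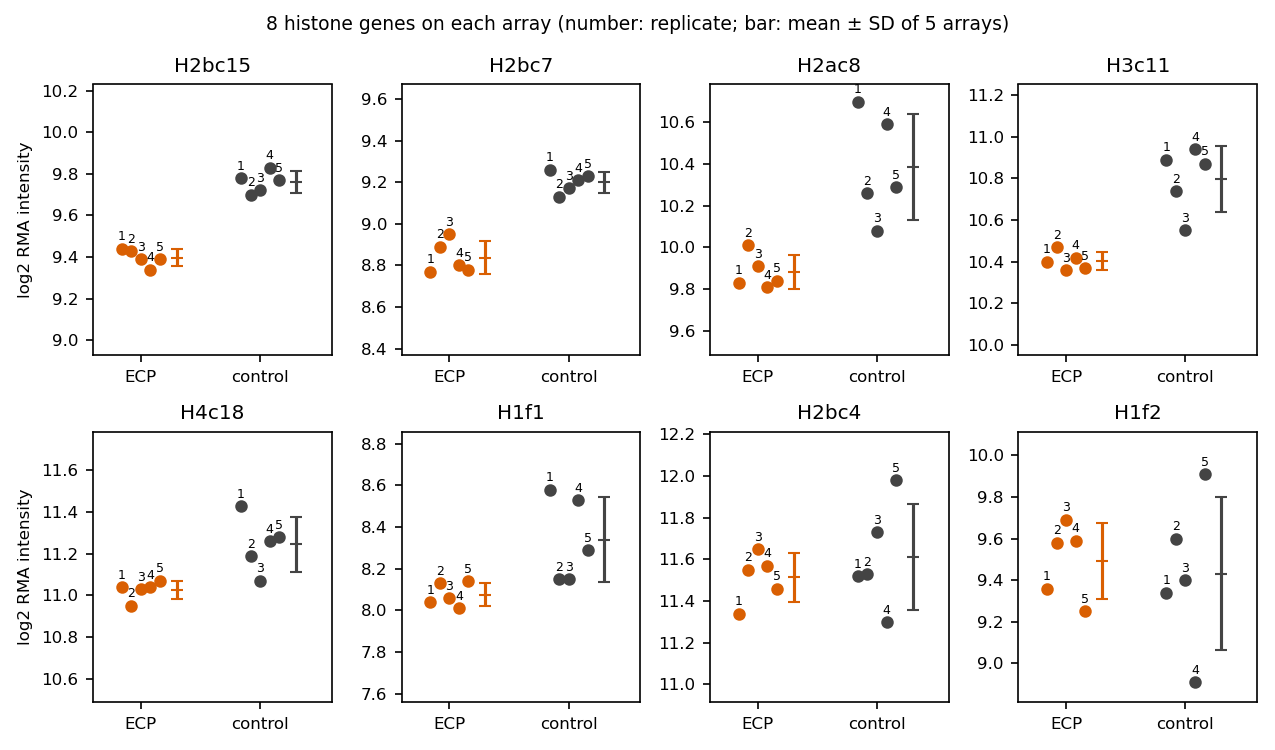
Log2 RMA intensity of 8 histone genes on each of the 5 ECP arrays (left in each panel, orange) and 5 control arrays (right, grey), numbered by replicate, with mean ± SD. The groups lie apart for H2bc15, H2bc7, H2ac8 and H3c11, touch for H4c18 and H1f1, and overlap for H2bc4 and H1f2.

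H2A genes had the most negative class median, -0.34, with all 13 lower in the ECP arrays. Of these, 11 had an unadjusted p under 0.05, against 2.77% of all genes lower at that level. H2ac8 had the most negative difference of all 53 genes. Its levels were 9.83, 10.01, 9.91, 9.81 and 9.84 in the ECP arrays and 10.70, 10.26, 10.08, 10.59 and 10.29 in the control arrays (difference -0.50, SE 0.11, fold 0.705, limma adjusted p = 0.238). Control replicates 1 and 4 were the highest and control replicate 3 lay just above the ECP arrays. Without control replicates 1 and 4 the difference of H2ac8 was -0.33. H2ac15 had 10.11, 10.38, 10.25, 10.13 and 10.17 in the ECP arrays and 10.88, 10.59, 10.43, 10.81 and 10.60 in the control arrays (difference -0.45, SE 0.09, limma adjusted p = 0.204), with the groups 0.05 apart. H2ac10 had the smallest p of the class and averaged 10.43 ± 0.10 in the ECP arrays against 10.82 ± 0.12 in the control arrays (SD, n = 5 each; difference -0.39, SE 0.08, limma adjusted p = 0.181).

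H2ac4 averaged 9.87 ± 0.06 in the ECP arrays and 10.22 ± 0.13 in the control arrays (SD, n = 5 each). H2ac11, H2ac12, H2ac13, H2ac22 and H2ac24 had differences between -0.35 and -0.33, each with no overlap between the groups. H2ac20 and H2ac1 had smaller differences (both -0.22) at unadjusted p = 0.00597 and 0.0298. H2ac1 codes for a testis form of H2A. H2ac6 differed by -0.26, with levels of 8.18 to 8.35 in the ECP arrays, against 8.25 to 8.62 in control replicates 2 to 5 and its highest level in control replicate 1. Its groups overlapped and its unadjusted p was 0.0585. Without control replicate 1 its difference was -0.15. H2ac21 had the smallest difference of the class (-0.12, 95% interval -0.27 to 0.03).

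H2A and H2B genes often stand next to each other, and 10 such neighbouring pairs were found in the RefSeq gene table. In 7 pairs both genes differed by -0.50 to -0.29: H2ac4 with H2bc3, H2ac8 with H2bc8, H2ac11 with H2bc11, H2ac12 with H2bc12, H2ac13 with H2bc13, H2ac15 with H2bc15 and H2ac22 with H2bc22. The testis pair H2ac1 and H2bc1 stood at -0.22 and -0.20. In the other two pairs the H2A gene had the more negative difference, with H2ac6 at -0.26 beside H2bc4 at -0.10, and H2ac20 at -0.22 beside H2bc21 at -0.06.

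Histone H3 genes were lower in the ECP arrays in 10 of 10, with a median difference of -0.31. Of these, 9 had an unadjusted p under 0.05, against 2.77% of all genes lower at that level. H3c11 had levels of 10.40, 10.47, 10.36, 10.42 and 10.37 in the ECP arrays and 10.89, 10.74, 10.55, 10.94 and 10.87 in the control arrays. The ECP arrays lay within 0.11 of each other, and the nearest control array, replicate 3, was 0.08 above them (difference -0.39, SE 0.08, limma adjusted p = 0.181). RefSeq lists H3c1, H3c8, H3c10 and H3c11 as synonyms, and the other 6 together. In the first of these sets H3c10 and H3c8 both differed by -0.36, and H3c1, at percentile 9.8 of the levels of all genes, by -0.11, or -0.07 without control replicate 1. In the second set differences ran from -0.32 for H3c6 (10.44 ± 0.03 in the ECP arrays and 10.76 ± 0.12 in the control arrays, SD, n = 5 each) to -0.24 for H3c3. H3c14, which shares every value with H3c15, differed by -0.31 (SE 0.07, limma adjusted p = 0.303), H3c13 by -0.30 and H3c7 by -0.31.

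Histone H4 genes, which all code for the same protein in the mouse, had a smaller median difference, -0.19. All 11 were lower in the ECP arrays, and 5 had an unadjusted p under 0.05, against 2.77% of all genes lower at that level. In 3 the groups did not overlap, against 0.831% of all genes. H4c18 had 11.04, 10.95, 11.03, 11.04 and 11.07 in the ECP arrays and 11.43, 11.19, 11.07, 11.26 and 11.28 in the control arrays (difference -0.22, SE 0.07, limma adjusted p = 0.731). Control replicate 1 was the highest array, and control replicate 3 lay at the upper edge of the ECP arrays. H4c2, H4c4, H4c9 and H4c1 differed by -0.21, -0.16, -0.23 and -0.19. H4c6, with the most negative difference of the class (-0.28, unadjusted p = 0.0515), ranged from 9.71 to 10.04 in the ECP arrays and from 9.76 to 10.51 in the control arrays. The remaining H4 genes, H4c12, H4c14, H4c8, H4c3 and H4c11, had differences of -0.20 to -0.09 at unadjusted p of 0.103 or more. Without control replicate 1 the differences of H4c6, H4c8, H4c12 and H4c11 were -0.17, -0.09, -0.09 and -0.03. Without control replicates 1 and 4 the H4 median was -0.11. Of the 11 genes, 1 then had an unadjusted p under 0.05, against 3.72% of all genes lower in that fit.

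The linker histone H1, which binds DNA between nucleosomes, had 3 genes that were lower in the ECP arrays and 1, H1f2, that was not. H1f1 had 8.04, 8.13, 8.06, 8.01 and 8.14 in the ECP arrays and 8.58, 8.15, 8.15, 8.53 and 8.29 in the control arrays (difference -0.26, SE 0.09, limma adjusted p = 0.831). Control replicates 1 and 4 were high, and the other control arrays lay close to the ECP arrays; without control replicates 1 and 4 the difference was -0.12. H1f5 differed by -0.20 (95% interval -0.41 to 0.01), or -0.07 without those arrays, and H1f3 by -0.15 (95% interval -0.32 to 0.02). H1f2 is, like H2bc4, known to be expressed with a poly(A) tail in non-dividing cells. It had 9.36, 9.58, 9.69, 9.59 and 9.25 in the ECP arrays and 9.34, 9.60, 9.40, 8.91 and 9.91 in the control arrays. The lowest and the highest of the 10 values were both control arrays, replicates 4 and 5, the same arrays as for H2bc4 (difference 0.06, 95% interval -0.29 to 0.41). Its sign was not stable, with -0.07 without control replicate 4 and 0.18 without control replicate 5.

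**Figure D3:**
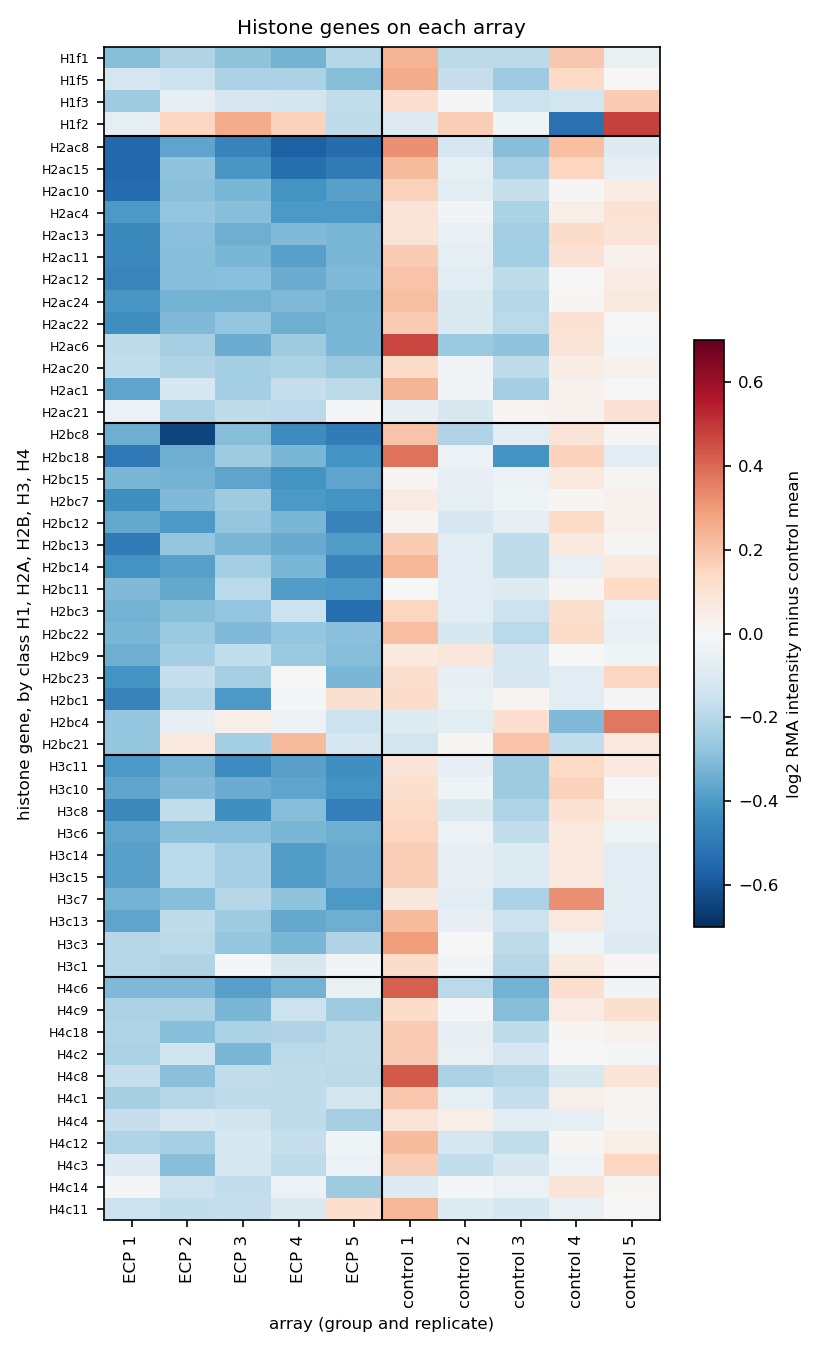
Log2 RMA intensity of each of the 53 histone genes (rows, by class) minus the mean of the 5 control arrays, for the 5 ECP arrays (left) and the 5 control arrays (right). Blue (below the control mean) fills most of the ECP columns in H2A, H2B and H3, control replicate 1 is the reddest column, and H1f2 and H2bc4 differ from their classes.

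The arrays were ordered alike across most of these genes. Control replicate 1 was the highest of all 10 arrays in 37 of 53 genes, and control replicate 3 the lowest control array in 41 of 53. The mean level of the 53 genes was 9.44, 9.51, 9.50, 9.50 and 9.47 in the ECP arrays and 9.91, 9.68, 9.60, 9.79 and 9.78 in the control arrays. The ECP arrays were closer together (SD 0.03, against 0.12 in the control arrays), and all lay below the lowest control array, replicate 3. The same held for the class means of H2A, H2B and H3. The H2A mean was 10.01 ± 0.04 in the ECP arrays and 10.34 ± 0.15 in the control arrays, that of H2B 8.57 ± 0.06 and 8.86 ± 0.08, and that of H3 9.54 ± 0.05 and 9.84 ± 0.13 (SD, n = 5 each). For H4 (10.35 ± 0.04 in the ECP arrays and 10.53 ± 0.14 in the control arrays) and H1 (8.65 ± 0.06 and 8.79 ± 0.14) the groups overlapped. The difference between classes was not tested.

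**Figure D4:**
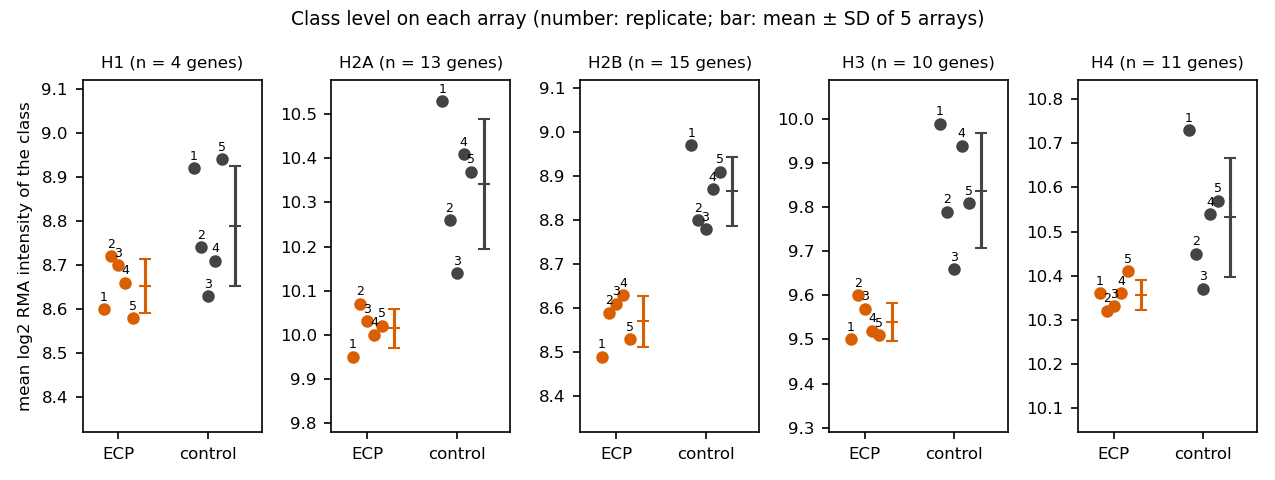
Mean log2 RMA intensity of each histone class on each ECP array (left in each panel) and control array (right), numbered by replicate, with mean ± SD of the 5 arrays. All axes span 0.8 log2 units. ECP and control arrays lie apart for H2A, H2B and H3, and some control arrays reach the ECP arrays for H4 and H1.

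The control arrays with acinar transcripts were among those with high histone levels. Control replicates 1 and 4 had the highest means over the 53 genes, and control replicate 5, with a slightly raised acinar level, came next at 9.78. Without control replicates 1 and 4, 53 of 53 genes were lower in the ECP arrays, the median difference was -0.20, and 29 had an unadjusted p under 0.05, against 3.72% of all genes in that fit. Without control replicates 1, 4 and 5, which leaves 2 control arrays, 48 of 53 were lower, the median was -0.17 and 23 had an unadjusted p under 0.05, against 3.06% of all genes. H2bc15 and H2bc7 were then at -0.31 and -0.32, near their values with all arrays, and the H4 median was -0.07. The part of pancreatic or B cell RNA in these differences was not tested beyond leaving those arrays out.

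Histone genes were divided between a large Hist1 cluster, with 45 of the 53, and a smaller Hist2 cluster, with 8, by their older names in RefSeq. The Hist1 genes had a median difference of -0.29 (33 of 45 lower at an unadjusted p under 0.05, against 2.77% of all genes). The Hist2 genes had a median of -0.26 (5 of 8), of which 2 are the pair with the same values, H3c14 and H3c15.

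Genes of replacement and variant histones, most of which are made throughout the cell cycle, mostly had small differences. Of 12 measured, 8 were lower and 4 higher, with a median of -0.10. At an unadjusted p under 0.05, 3 were lower, against 2.77% of all genes. The 12 include H4f16 and H2bu2 (-0.14 and -0.10), core histone genes outside the symbol rule that need not be replacement histones. The gene for the centromere histone, Cenpa, whose mRNA accumulates late in the cell cycle, had 8.30 in the ECP arrays and 8.81 in the control arrays (difference -0.52, SE 0.09, limma adjusted p = 0.134). H2ax, a DNA damage marker whose gene also gives a stem-loop mRNA, differed by -0.31 (SE 0.08, limma adjusted p = 0.374), near the median of the H2A class. The H3.3 genes H3f3a and H3f3b differed by -0.11 and 0.05. The H2A.Z genes H2az2 and H2az1 differed by -0.17 and -0.06. The 9 measured genes of germline histones had a median of 0.00, with 0 at an unadjusted p under 0.05.

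Factors that make, process or degrade histone mRNA showed small differences. Over all genes 2.77% were lower at an unadjusted p under 0.05, and no reading is placed on counts of 1 or 2 genes. The 9 measured transcription factors and regulators had a median of -0.08, and 1 was lower at an unadjusted p under 0.05: Hinfp, an activator of H4 genes (-0.27, SE 0.09, limma adjusted p = 0.731). Npat, the coactivator that cyclin E and Cdk2 phosphorylate at histone loci, differed by -0.08 (SE 0.06). Of 14 genes for 3′ end processing, 1 was lower at that level, Zfp473 (-0.19, SE 0.09, limma adjusted p = 0.957). It codes for a zinc finger protein of the U7 complex. Slbp differed by -0.10 (SE 0.08). The 9 decay genes had a median of 0.00, with 0 at an unadjusted p under 0.05. Among 21 histone chaperones and import factors the median was -0.03, and 2 were lower at that level. These were Asf1b and Hjurp. Asf1b is the proliferation-linked chaperone of H3 and H4 (8.37 in the ECP arrays and 8.78 in the control arrays, difference -0.41, SE 0.09, limma adjusted p = 0.230). Hjurp is the chaperone of Cenpa (-0.17, SE 0.08, limma adjusted p = 0.978).

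S phase genes and mitosis genes are the nearest companions of the histone genes in the cell cycle. Of 28 S phase genes, most of them for replication and nucleotide supply, 22 were lower and 6 higher, with a median of -0.08. At an unadjusted p under 0.05, 6 were lower, against 2.77% of all genes. Among them were the thymidylate synthase gene Tyms (-0.24, SE 0.07) and the helicase subunit gene Mcm5 (-0.30, SE 0.10). The other Mcm genes in the list, Mcm2, Mcm3, Mcm4 and Mcm6, differed by -0.07, 0.03, -0.05 and 0.00. Ccne1, Ccne2, E2f1, Slbp and Mcm2 in this list were also counted in the lists of the paragraph above. Of 19 genes of G2 and mitosis all were lower, each at an unadjusted p under 0.05, with a median of -0.46. Over all genes 2.77% were lower at that level. Of the 19, 0 had an adjusted p under 0.05. The smallest was that of the cyclin gene Ccna2 (-0.58, SE 0.07, limma adjusted p = 0.0686). Their mean level was 7.70 ± 0.13 in the ECP arrays and 8.18 ± 0.07 in the control arrays (SD, n = 5 each). The median of the histone genes thus lay between these lists. Both lists were chosen with earlier results of these data known, so neither is an independent benchmark. Whether the histone genes differ from either list was not tested.

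**Figure D5:**
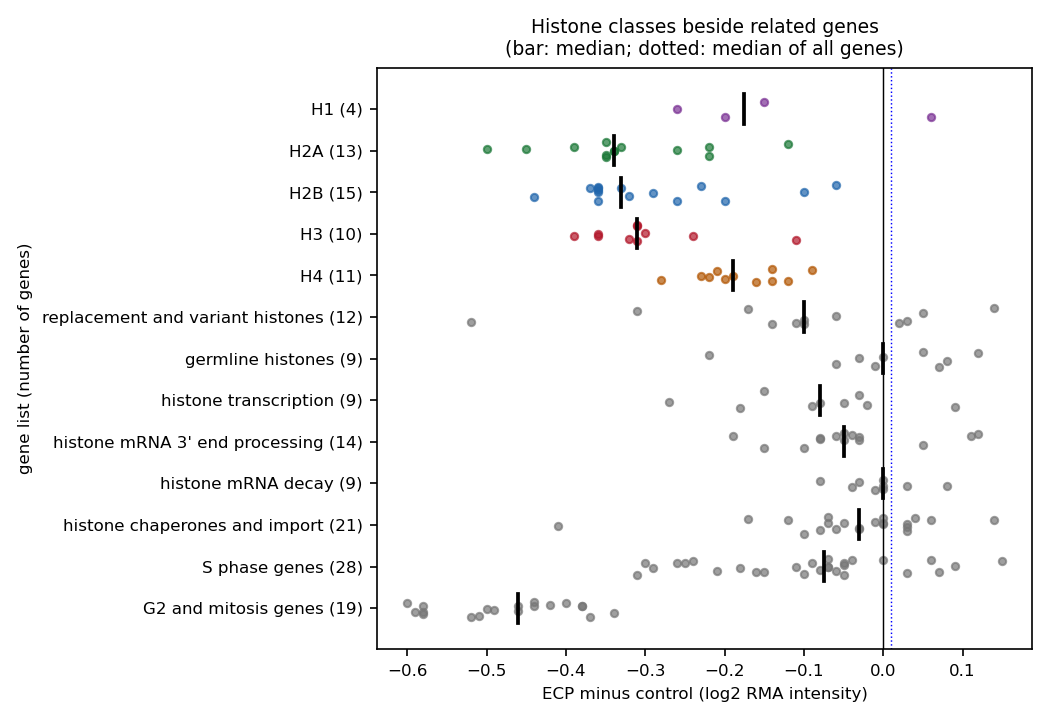
Difference in log2 RMA intensity, ECP minus control, for single genes (points) of the 5 histone classes and 8 lists of related genes, with the median of each (black bar) and of all genes (dotted line). Medians run from -0.46 for G2 and mitosis genes over -0.34 to -0.18 for the histone classes to 0.00 for germline histones and decay factors.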

How the data were processed

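The deposited table holds log2 intensities per probe set from single-colour Clariom S Mouse arrays. Per the submitters' processing notes, the authors used oligo with RMA. No version or option is named in the sources used here. Quantile normalisation hides a change shared by most genes. The number of arrays limits the precision. Of 22203 probe sets, 19572 had exactly 1 gene symbol in the platform annotation. The other 2631 had none or more than 1 and were left out. The probe set with the highest mean over the 10 arrays stood for its gene, leaving 19505 genes.

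Groups and replicate numbers came from the sample titles. Genes were fitted in R 4.3.3 by limma 3.58.1 (lmFit, eBayes, two-sided, no covariate), a fit also tested on simulated data. P-values were adjusted by Benjamini-Hochberg across every gene, with 0.05 as the threshold. The fit held all 10 arrays. Medians and counts over lists carry no test. The histone genes and the lists of related genes, taken from textbook knowledge, were chosen with earlier results of these data known. The rule for named genes took the 4 with the smallest unadjusted p and the one with the most positive difference in each class, and up to 3 per related list. Further values, such as those of H2bc4, H2ac6 and H4c6, and further related genes were picked after they were seen. Promoters came from RefSeq, build GRCm38.p6.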

Additional observations from a re-analysis of the deposited data

Results flagged for a closer look

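An array was singled out where the gap to its nearest neighbour exceeded 0.71 of the range of its group of 5. Among 116 groups examined (53 genes and 5 class means in both groups) 4 arrays were singled out, where chance gives about 5.8. All 4 were ECP arrays. H2ac24 was low in ECP replicate 1 (10.99, next 11.07), and H4c8 was low in ECP replicate 2 (9.47, next 9.57). ECP replicate 5 was high in H4c6 (10.04, next 9.78) and in H4c11 (11.68, next 11.46).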

How the results depend on the processing

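The count of 0 of 19505 genes past adjusted p 0.05 became 1 when the lowest quartile of genes was left out, 1 with trend and robust options (Ccna2 in both) and 1 without control replicate 3 (Cenpf), and 7 among genes at or above the median level. That last setting tests fewer genes and called 2 histone genes, H2bc15 (limma adjusted p = 0.0335, difference -0.36) and H2bc7 (0.0462, -0.36). Across leave-one-out fits the histone genes lower at an unadjusted p under 0.05 numbered 36 to 43. The share over all genes was 2.77% in the fit with all arrays and is not given for these fits. Their median difference over the histone genes was -0.34 to -0.24, and 0 histone genes were called. Without control replicates 1, 4 and 5 the count was 23 and the median -0.17, and 6 of the 53 genes changed sign, H1f2 (-0.01), H1f5 (0.00), H2ac6 (0.01), H3c1 (0.00), H4c8 (0.01) and H4c11 (0.01). The difference of H1f2 was -0.07 to 0.18 over the leave-one-out fits, and it also changed sign with array weights (-0.01), without control replicate 4 (-0.07) and without control replicates 1 and 4 (-0.14). The causes were not tested. With the replicate block the count was 38 and the median -0.29, with 0 genes called. The share over all genes is not given for that fit either. The limma adjusted p was higher there, at 0.477 for H2bc15 and 0.492 for H2bc7, against 0.106 for both without the block. Same-numbered arrays did not deviate together (correlations -0.244 to 0.0761). These values gave no sign that the numbers pair the arrays, but they cannot exclude a pairing by design.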
